A study of Mus musculus with 12 samples.

Results

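The genes described here are 9 transcription factors of the myeloid lineages, namely Cebpa, Cebpe and Gfi1 on the granulocyte side, Irf8 and Klf4 on the monocyte side, and Cebpb, Cebpd, Spi1 and Runx1, which act in both. They were taken by name, out of 22180 genes with a probe set annotated to a single symbol, and where a gene had several probe sets the brightest on average was read. The granulocyte-side genes lie at chr7:35119293-35121928 (Cebpa), chr14:54710363-54712174 (Cebpe) and chr5:107716655-107725805 (Gfi1) on GRCm38.p6, and the monocyte-side genes at chr8:120736358-120756694 (Irf8) and chr4:55527137-55532475 (Klf4). Those shared by both lineages lie at chr2:167688915-167690432 (Cebpb), chr16:15887286-15889545 (Cebpd), chr2:91082374-91115759 (Spi1) and chr16:92601466-92826074 (Runx1). All 9 stood above a log2 value of 4.61, the 25th percentile of the whole table, on each of the 12 arrays, so that no member was lost to the filter on low values. The measure throughout is the log2 RMA value, a background-corrected and normalised probe set intensity on which a difference of 1 is a 2-fold difference. Levels of different genes are not set against each other, since probe sets differ in brightness.

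A granulocyte-monocyte progenitor gives rise to neutrophils or monocytes, and the balance between these factors is central to that choice. Spi1 encodes PU.1, an ETS factor that all myeloid cells need, and Runx1 encodes the DNA-binding core-binding factor subunit that opens the myeloid programme in stem and progenitor cells. Cebpa encodes the C/EBP factor that starts granulocyte commitment, and Cebpe the C/EBP factor of the later, secondary granule stages. Gfi1 encodes a zinc-finger repressor that favours neutrophils and holds back monocyte genes, whereas Irf8 and Klf4 encode factors that drive monocyte differentiation. Cebpb is known for emergency granulopoiesis and for macrophage gene activation, and Cebpd is a C/EBP factor induced during myeloid maturation and inflammation.

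The arrays came from 6 mouse leukaemias, all driven by the oncogene MLL-AF9, a fusion found in human acute leukaemias that every group carries. Leukaemias 81, 83 and 85 were labelled Dnmt3b-knockin (knock-in below), as overexpressing Dnmt3b, a de novo DNA methyltransferase, and leukaemias 73, 75 and 79 were labelled WT (wild type). Each leukaemia was sorted by c-kit, a surface receptor found on immature blood cells, into a positive and a negative fraction, which gave 3 arrays in each of 4 groups. The tissue is bone marrow in the titles but spleen in the source field, and strain, age, treatment and the promoter of the knock-in allele are not given in the sources used here. Whether the numbers stand for separate mice is not in the labels, so p-values measure the spread between these samples, which may be partly technical.

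Array medians lay between 5.56 and 5.71, and arrays of a group correlated with r of 0.933 to 0.986. Kit differed 2.65-fold between the fractions, higher in the c-kit-positive one (log2 difference 1.40, adjusted p = 7.78e-06 with limma). The Dnmt3b probe set, in contrast, did not separate the genotype labels, with a log2 difference of 0.03 (95% confidence interval -0.19 to 0.25, adjusted p = 0.964 with limma), so the targeted gene does not check these labels. Whether this probe set reads the transcript of the knock-in allele, and whether each leukaemia carries its right label, was not tested, and every genotype difference and its sign below is between leukaemias as labelled. Leukaemia 81 stood apart from the other 5. Its Xist values were 6.30 in the c-kit-positive and 6.27 in the c-kit-negative fraction, against 9.83 to 11.7 on the other arrays, and its Y-linked Uty values were 6.77 and 5.58. Main results that rest on leukaemia 81 are therefore also given without it or over all leave-outs.

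The stretches just upstream of 3 members are shown first, those of Gfi1, Irf8 and Klf4, because their levels differed most between the c-kit fractions and because the study concerns an enzyme that methylates CpG sites. Each is the 250 bases before the start of the gene, 5′ to 3′ in the direction of the gene, from RefSeq on GRCm38.p6, with CpG dinucleotides in capitals. They lie at chr5:107725806-107726055 on the minus strand for Gfi1, chr8:120736108-120736357 on the plus strand for Irf8 and chr4:55532476-55532725 on the minus strand for Klf4.
Gfi1: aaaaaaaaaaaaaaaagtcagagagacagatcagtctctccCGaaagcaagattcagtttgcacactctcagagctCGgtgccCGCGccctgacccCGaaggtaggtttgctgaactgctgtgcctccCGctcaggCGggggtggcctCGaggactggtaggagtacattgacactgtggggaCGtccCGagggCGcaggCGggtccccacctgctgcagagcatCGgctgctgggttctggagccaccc
Irf8: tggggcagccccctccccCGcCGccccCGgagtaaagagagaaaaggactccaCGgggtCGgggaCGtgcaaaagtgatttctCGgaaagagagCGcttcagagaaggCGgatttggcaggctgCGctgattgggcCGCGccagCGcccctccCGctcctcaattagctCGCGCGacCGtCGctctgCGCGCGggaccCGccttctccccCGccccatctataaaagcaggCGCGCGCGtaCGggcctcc
Klf4: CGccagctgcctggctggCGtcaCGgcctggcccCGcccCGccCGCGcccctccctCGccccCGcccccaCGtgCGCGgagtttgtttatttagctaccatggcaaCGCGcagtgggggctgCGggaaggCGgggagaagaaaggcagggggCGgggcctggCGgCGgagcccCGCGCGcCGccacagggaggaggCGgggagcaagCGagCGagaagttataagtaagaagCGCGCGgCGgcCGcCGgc
Gfi1 and Irf8 each have 2 annotated starts, and the window before the one furthest upstream is printed.

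The monocyte-side stretches are the denser in CpG. The Klf4 window holds 32 CpG and 74% G or C, and the Irf8 window 29 CpG and 67.2% G or C. The Gfi1 window holds 13 CpG and 59.2% G or C. Over the 27025 genes with such a window the median was 6 CpG and 52% G or C, and 95.6%, 93.6% and 68.2% of genes had fewer CpG than Klf4, Irf8 and Gfi1. Windows were found for 6 of the 9 members, and the other 3 of those 6 hold 22 CpG (Cebpa), 41 CpG (Cebpb) and 2 CpG (Runx1). DNA methylation was not measured in these samples.

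Short motifs of the members' own families were searched in these 6 windows on both strands. The C/EBP motif TTGCNNAA lies in the Gfi1 window, 143 to 136 bases before the start, and in 9.55% of all windows. The GFI1 motif AATCAC lies on the opposite strand in the Irf8 window, 176 to 171 bases before the start, and in that of Runx1, 68 to 63 bases before the start, and is in 9.23% of all windows. The PU.1 motif GAGGAA (23.1% of all windows), the RUNX motif TGTGGT (14.2%), the IRF motif (3.05%), which is GAAA repeated after any 2 bases, and the KLF motif GGGTGTG (6.9%) are in 0 of the 6 windows. No match overlapped a match of another motif, and a match describes these letters only.

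The c-kit fractions were compared to ask how cells with and without this receptor of immature blood cells differ. The sample titles name no sort for leukaemic cells and no stage of maturity. Of the 9 factors, Gfi1 was higher and Klf4 lower in c-kit-positive cells over both genotypes, and the other 7 did not pass the threshold of an adjusted p of 0.05. That is 2 of 9 members, beside 8.25% of the 19152 genes tested (5.84% higher and 2.41% lower). This limma fit did not pair the fractions of a leukaemia. With the fractions paired by a replicate block, 6 of 9 passed (Cebpe, Gfi1, Cebpb, Runx1, Irf8 and Klf4), beside 19.6% of genes. The members' median log2 difference was -0.15, against -0.03 over all genes tested. In these sorted bulk samples, fewer cells that express a gene and less RNA per cell cannot be told apart.

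**Figure D1:**
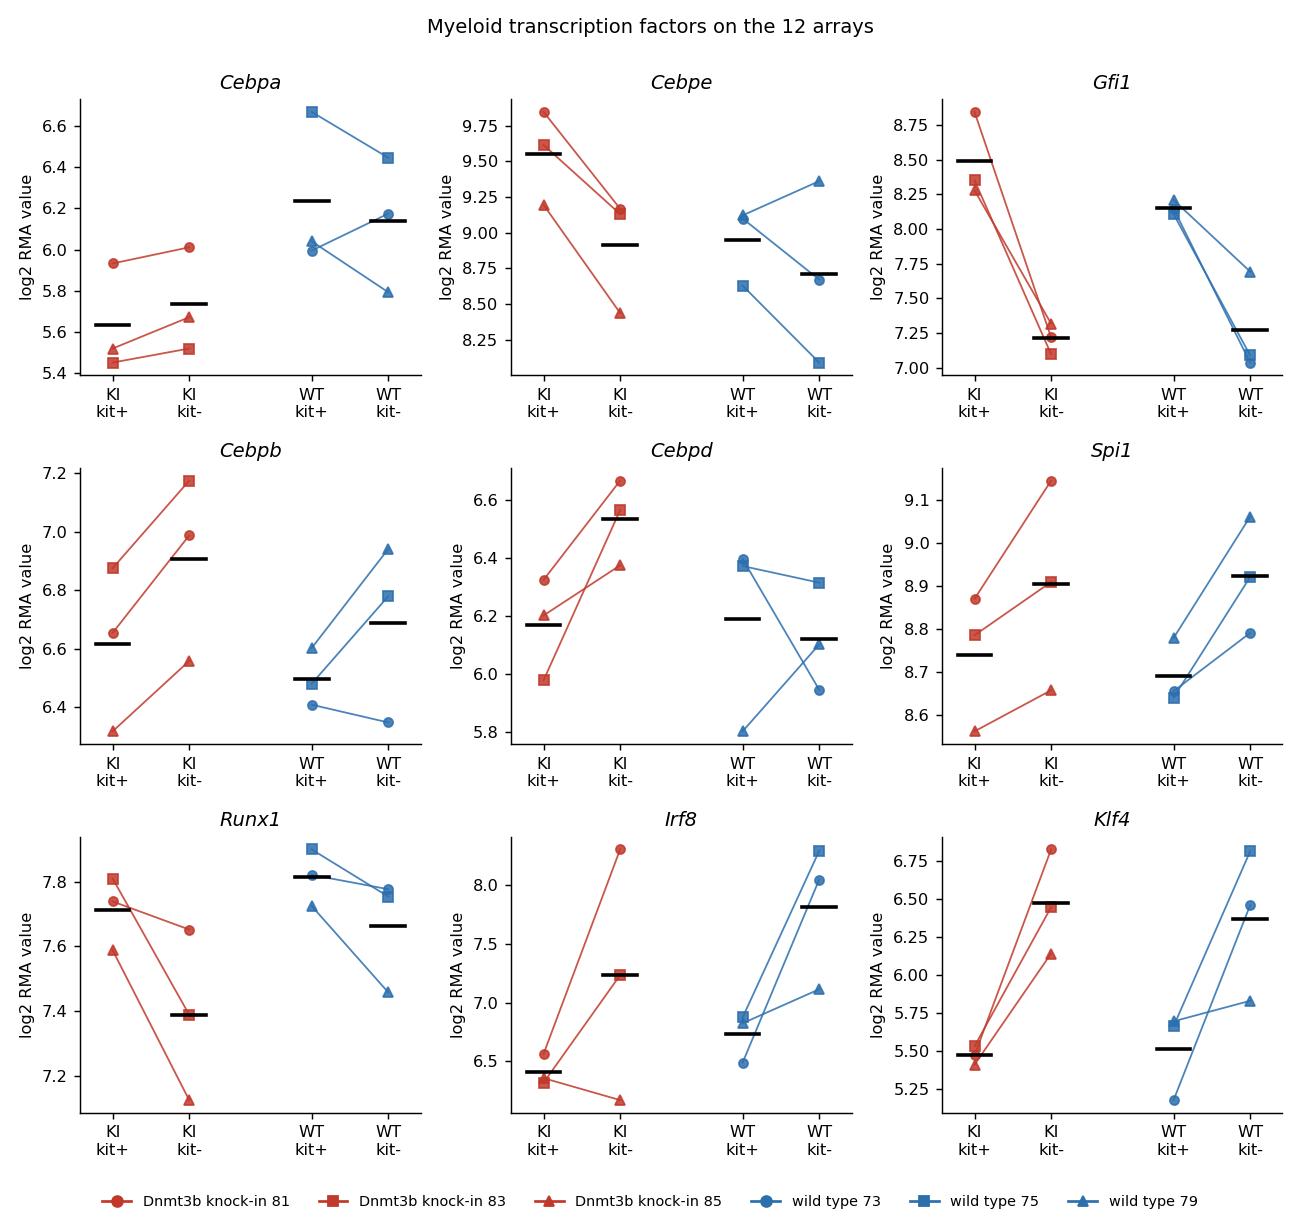
Log2 RMA values of the 9 factors on the 12 arrays, 1 panel per gene, with the c-kit-positive (kit+) and c-kit-negative (kit-) fraction of each leukaemia joined by a line, knock-in (KI) leukaemias to the left of wild-type (WT) leukaemias, and black bars for the means of 3 arrays. Axes start at different values. All lines fall from kit+ to kit- for Gfi1 and all rise for Klf4.

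Gfi1, the repressor that favours neutrophils, gave the clearest separation. Its c-kit-positive log2 values were 8.84, 8.35 and 8.28 in knock-in leukaemias 81, 83 and 85, and its c-kit-negative values 7.22, 7.10 and 7.32 in the same leukaemias. In wild-type leukaemias 73, 75 and 79 the c-kit-positive values were 8.15, 8.11 and 8.21, and the c-kit-negative values 7.04, 7.09 and 7.69. Every c-kit-positive array stood above every c-kit-negative one, and leukaemia 79 was the one whose c-kit-negative cells came nearest. Over both genotypes Gfi1 was 2.11-fold higher in the c-kit-positive fraction (log2 difference 1.08, SE 0.12, 95% confidence interval 0.81 to 1.35, adjusted p = 0.00034 with limma), and higher in 6 of 6 leukaemias. Without leukaemia 81 the difference was 0.99 (adjusted p = 0.000759 with limma).

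Within each genotype Gfi1 passed as well, less firmly in wild type. In knock-in leukaemias it averaged 8.49 ± 0.31 in c-kit-positive and 7.21 ± 0.11 in c-kit-negative cells (SD, n = 3 each), which is 2.43-fold higher (log2 difference 1.28, SE 0.18, adjusted p = 0.00301 with limma). The knock-in call held when each leukaemia was left out in turn, with differences of 1.11 to 1.44. In wild-type leukaemias it averaged 8.15 ± 0.051 in c-kit-positive and 7.27 ± 0.36 in c-kit-negative cells (SD, n = 3 each), which is 1.84-fold higher (log2 difference 0.88, SE 0.18, adjusted p = 0.0426 with limma). The wild-type call was lost without leukaemia 73 (0.77, adjusted p = 0.390 with limma), 75 (0.81, adjusted p = 0.368) or 83 (0.88, adjusted p = 0.0904). It was also lost with each array centred on its median (adjusted p = 0.0597 with limma) and with a trended and robust spread (0.0517).

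Klf4, a Krüppel-like factor that drives monocyte differentiation, ran the other way. Its c-kit-positive log2 values were 5.47, 5.53 and 5.41 in knock-in leukaemias 81, 83 and 85, and its c-kit-negative values 6.83, 6.45 and 6.14. In wild-type leukaemias 73, 75 and 79 the c-kit-positive values were 5.18, 5.67 and 5.70, and the c-kit-negative values 6.46, 6.82 and 5.83. The 2 fractions did not overlap, though the gap was narrow in leukaemia 79. Over both genotypes Klf4 was 1.90-fold lower in c-kit-positive cells (log2 difference -0.93, SE 0.16, 95% confidence interval -1.28 to -0.58, adjusted p = 0.00455 with limma), and lower in 6 of 6 leukaemias. Without leukaemia 81 it was -0.84 (adjusted p = 0.0106 with limma). Gfi1 and Klf4 were the 2 of 9 members whose fractions did not overlap over all 12 arrays, beside 3.39% of genes.

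In the knock-in leukaemias alone, Klf4 was 2.0-fold lower in c-kit-positive cells, at 5.47 ± 0.060 against 6.47 ± 0.34 in c-kit-negative cells (SD, n = 3 each, log2 difference -1.0, SE 0.23, adjusted p = 0.0443 with limma). That call was close to the threshold and was lost without leukaemia 73 (adjusted p = 0.0743), 75 (0.0506), 81 (0.168), 83 (0.275) or 85 (0.0721), with differences of -1.13 to -0.82 over all leave-outs in limma. It was also lost with centred arrays (adjusted p = 0.0865 with limma) and without the filter on low values (0.0511). In the wild-type leukaemias Klf4 had 5.51 ± 0.29 in c-kit-positive and 6.37 ± 0.50 in c-kit-negative cells (SD, n = 3 each), a difference of -0.86 with an adjusted p of 0.0967 with limma. With the leukaemia as a replicate block, which compares both fractions of the same leukaemia, it passed in wild type (adjusted p = 0.0162 with limma).

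Irf8, the interferon regulatory factor of monocytes and dendritic cells, had a difference of similar size to that of Klf4 and a wider spread. Its c-kit-positive log2 values were 6.56, 6.32 and 6.36 in knock-in leukaemias 81, 83 and 85, and its c-kit-negative values 8.30, 7.23 and 6.17. In wild-type leukaemias 73, 75 and 79 the c-kit-positive values were 6.49, 6.87 and 6.82, and the c-kit-negative values 8.05, 8.29 and 7.11. The c-kit-negative fraction of leukaemia 85 was the lowest of all 12 arrays, so the fractions overlapped. Over both genotypes the difference was -0.96 (SE 0.29, adjusted p = 0.0617 with limma), negative in 5 of 6 leukaemias and 0.19 in leukaemia 85. It passed with the replicate block (adjusted p = 0.00797 with limma) and without leukaemia 85 (-1.21, adjusted p = 0.0113), and was -0.73 without leukaemia 81 (adjusted p = 0.0711).

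Irf8 has another probe set, with log2 values of 4.44 to 5.67, and the difference depended on which of them was read. On the other probe set the c-kit-positive value was the lower in every leukaemia, leukaemia 85 included (5.19 against 5.44). The other probe set gave -0.40 over both genotypes (adjusted p = 0.0755 with limma), and the mean of both probe sets gave -0.68 (adjusted p = 0.0311). In wild-type leukaemias the main probe set gave -1.09 (adjusted p = 0.220 with limma, 0.0395 with the replicate block), with no overlap between the fractions. In knock-in leukaemias it gave -0.82 (adjusted p = 0.439 with limma, 0.131 with the replicate block), with fractions that overlapped.

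B cells and dendritic cells also express Irf8, so their genes are given beside it. The summed linear signal of 9 B cell genes was 543 to 624 in c-kit-positive and 678 to 1398 in c-kit-negative knock-in arrays, and 549 to 626 in c-kit-positive and 519 to 649 in c-kit-negative wild-type arrays. That of 9 dendritic cell genes was 466 to 613 in c-kit-positive and 562 to 638 in c-kit-negative knock-in arrays, and 670 to 801 in c-kit-positive and 612 to 1086 in c-kit-negative wild-type arrays, with Bst2 at or under the filter value on all 12 arrays. The highest mean log2 value of the B cell genes was 5.97, in c-kit-negative cells of leukaemia 81. The mean log2 value of the dendritic cell genes in c-kit-negative cells was 5.74, 5.85 and 5.84 in knock-in leukaemias 81, 83 and 85, and 6.04, 6.10 and 5.79 in wild-type leukaemias 73, 75 and 79. It stood in the order of the Irf8 values in the wild-type leukaemias but not in the knock-in leukaemias, where the one with the highest Irf8 value had the lowest mean. With limma, 1 of 8 tested B cell genes was lower in c-kit-positive cells over both genotypes (Ighm) and 0 of 7 tested dendritic cell genes passed. With the replicate block, or without leukaemia 85, 1 dendritic cell gene passed as lower (Itgax, which encodes the integrin CD11c). The part of such cells in the Irf8 values was not tested.

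**Figure D2:**
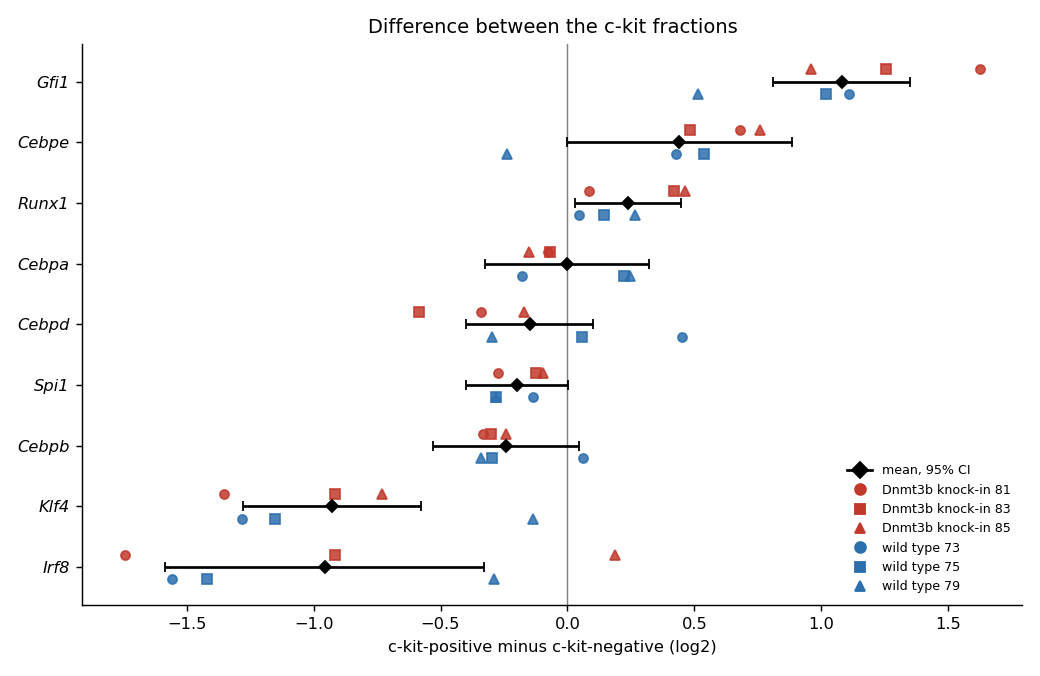
Log2 difference of c-kit-positive minus c-kit-negative cells for each factor, with 1 point per leukaemia (knock-in in red, wild type in blue) and the limma mean over both genotypes with its 95% confidence interval as a black diamond and bar. Gfi1 lies right of 0 and Klf4 left of 0 in all 6 leukaemias. Irf8, read by its main probe set, lies right of 0 in leukaemia 85 alone.

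Cebpe, the late granulocytic C/EBP factor, had a difference of the same sign as Gfi1 without passing. Its c-kit-positive log2 values were 9.85, 9.62 and 9.20 in knock-in leukaemias 81, 83 and 85, and its c-kit-negative values 9.17, 9.13 and 8.44. In wild-type leukaemias 73, 75 and 79 the c-kit-positive values were 9.10, 8.63 and 9.12, and the c-kit-negative values 8.67, 8.09 and 9.36. Within a leukaemia the c-kit-positive array was the higher in 5 of 6, leukaemia 79 being the exception, but the fractions overlapped across leukaemias. The difference was 0.44 over both genotypes (95% confidence interval -0.00 to 0.88, adjusted p = 0.216 with limma), and it passed with the replicate block (adjusted p = 0.00758). In the knock-in leukaemias alone it was 0.64, with fractions that did not overlap (adjusted p = 0.385 with limma, 0.0131 with the replicate block). That knock-in difference was 0.58 to 0.72 when each leukaemia was left out in turn.

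Cebpa, which starts granulocyte commitment, did not follow the fractions. Its c-kit-positive log2 values were 5.93, 5.45 and 5.52 in knock-in leukaemias 81, 83 and 85, and its c-kit-negative values 6.01, 5.52 and 5.67. In wild-type leukaemias 73, 75 and 79 the c-kit-positive values were 5.99, 6.67 and 6.04, and the c-kit-negative values 6.17, 6.45 and 5.79. Arrays of a leukaemia lay close together, and the spread was between leukaemias. The difference over both genotypes was -0.00 (95% confidence interval -0.33 to 0.32, adjusted p = 0.996 with limma).

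The factors shared by both lineages had smaller differences between the fractions than Gfi1, Klf4 and Irf8, with values from -0.24 for Cebpb to 0.24 for Runx1. Runx1 had c-kit-positive log2 values of 7.74, 7.81 and 7.59 and c-kit-negative values of 7.65, 7.39 and 7.12 in knock-in leukaemias 81, 83 and 85. Its wild-type values were 7.82, 7.90 and 7.73 in c-kit-positive and 7.78, 7.75 and 7.46 in c-kit-negative cells of leukaemias 73, 75 and 79. Runx1 was thus above in the c-kit-positive fraction in 6 of 6 leukaemias, by 0.04 to 0.46, and the difference of 0.24 had an adjusted p of 0.158 with limma, or 0.0388 with the replicate block. Spi1 was the opposite case.

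Spi1, which encodes PU.1, had c-kit-positive log2 values of 8.87, 8.79 and 8.56 and c-kit-negative values of 9.15, 8.91 and 8.66 in knock-in leukaemias 81, 83 and 85. Its wild-type values were 8.66, 8.64 and 8.78 in c-kit-positive and 8.79, 8.92 and 9.06 in c-kit-negative cells. The c-kit-positive fraction was the lower in 6 of 6 leukaemias, with differences of -0.28 to -0.10, and the difference of -0.20 had an adjusted p of 0.222 with limma, or 0.0504 with the replicate block. Repeated quantile normalization took it past the threshold (-0.26, adjusted p = 0.0286 with limma). In all, 4 of 9 members had the same sign in all 6 leukaemias (Gfi1, Runx1, Spi1 and Klf4), beside 21.9% of genes.

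Cebpb and Cebpd, the C/EBP factors of macrophage activation and inflammation, were the remaining shared factors. Cebpb had c-kit-positive values of 6.65, 6.87 and 6.32 and c-kit-negative values of 6.99, 7.17 and 6.56 in knock-in leukaemias, and 6.41, 6.48 and 6.60 in c-kit-positive and 6.35, 6.78 and 6.94 in c-kit-negative cells of wild-type leukaemias. Its difference was -0.24, negative in 5 of 6 leukaemias (adjusted p = 0.296 with limma, 0.0344 with the replicate block). Cebpd had c-kit-positive values of 6.32, 5.98 and 6.20 and c-kit-negative values of 6.67, 6.56 and 6.37 in knock-in leukaemias, which did not overlap. In wild-type leukaemias Cebpd had 6.40, 6.37 and 5.80 in c-kit-positive and 5.95, 6.31 and 6.10 in c-kit-negative cells, which overlapped, and its difference over both genotypes was -0.15 (adjusted p = 0.467 with limma).

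The replicate block moved the count of members past the threshold to 6 of 9 over both genotypes (Cebpe, Gfi1, Cebpb, Runx1, Irf8 and Klf4), beside 19.6% of all genes with the same block. Within the knock-in leukaemias 2 of 9 members passed without the block (Gfi1 and Klf4), beside 1.88% of genes. With the block, 3 passed (Cebpe, Gfi1 and Klf4), beside 8.70%. Within the wild-type leukaemias 1 of 9 passed without the block (Gfi1), beside 0.768% of genes, and 3 passed with it (Gfi1, Irf8 and Klf4), beside 11.0%. Fractions did not overlap for 4 of 9 members in knock-in leukaemias (Cebpe, Gfi1, Cebpd and Klf4), beside 13.6% of genes, and for 4 of 9 in wild-type leukaemias (Gfi1, Spi1, Irf8 and Klf4), beside 27.7%.

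Leukaemias differed in how far their fractions stood apart for these factors. Leukaemia 79 had the smallest fraction difference of the 6 for Gfi1 (0.52) and for Klf4 (-0.13), together with -0.29 for Irf8 and -0.24 for Cebpe. Its Kit values were nonetheless 8.34 in c-kit-positive and 6.57 in c-kit-negative cells, the highest and the second lowest of the c-kit-positive and c-kit-negative arrays. The mean log2 value of 31 genes of late granules and late neutrophils was 7.48 in its c-kit-positive and 8.86 in its c-kit-negative cells. For that list leukaemia 79 had the widest gap of the 6. Leukaemia 81 had the largest fraction difference for Gfi1 (1.62), Klf4 (-1.35) and Irf8 (-1.74). Leukaemia 85 set the 2 monocyte factors apart on the main Irf8 probe set, with -0.73 for Klf4 and 0.19 for Irf8. On the other Irf8 probe set its c-kit-positive value was the lower one, at 5.19 against 5.44.

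Monocyte genes are given beside Klf4 and Irf8, the factors of that lineage. Of 32 genes of monocytes and macrophages, 0 were higher and 22 lower in c-kit-positive cells over both genotypes, beside 5.84% and 2.41% of all genes. Like the members and the other lists, these genes were chosen with earlier results of these data known. Counts of a list beside shares of all genes are therefore a description and no independent test. The median log2 difference of the 32 genes was -0.75 against -0.03 over all genes (limma). Fn1, which encodes fibronectin, was 12.1-fold lower, the lectin gene Clec4a3 2.52-fold lower, Lgals3, which encodes galectin-3, 2.47-fold lower and Tgfbi, an extracellular matrix gene, 4.09-fold lower. Without leukaemia 73, 75 or 83 the count was 13. The summed linear signal of the list was 6813 to 7846 in c-kit-positive and 9523 to 17077 in c-kit-negative knock-in arrays, and 7117 to 8194 in c-kit-positive and 8508 to 14059 in c-kit-negative wild-type arrays, with 0 of the 32 genes at or under the filter value on all arrays. The part of these cells in the Klf4 and Irf8 differences was not tested.

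The mean log2 value of the monocyte list was the higher in c-kit-negative cells in 6 of 6 leukaemias. In c-kit-negative cells it was 7.92, 7.75 and 7.27 in knock-in leukaemias 81, 83 and 85, and 7.50, 7.69 and 7.16 in wild-type leukaemias 73, 75 and 79. The list and Klf4 were both highest in leukaemia 81 and lowest in leukaemia 79 there, and the order of the leukaemias in between differed. In c-kit-positive cells the list mean was 6.61, 6.54 and 6.48 in the knock-in and 6.58, 6.74 and 6.79 in the wild-type leukaemias. Leukaemia 85 had more of the list in its c-kit-negative than in its c-kit-positive cells. Its c-kit-negative Irf8 value was not above the c-kit-positive one on the main probe set, but was above it on the other. Csf1r, the macrophage colony-stimulating factor receptor and a known PU.1 target, was 2.75-fold lower in c-kit-positive cells over both genotypes (log2 difference -1.46, adjusted p = 0.00192 with limma). Spi1 RNA differed by -0.20. PU.1 protein was not measured, and its part in the Csf1r difference was not tested.

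**Figure D3:**
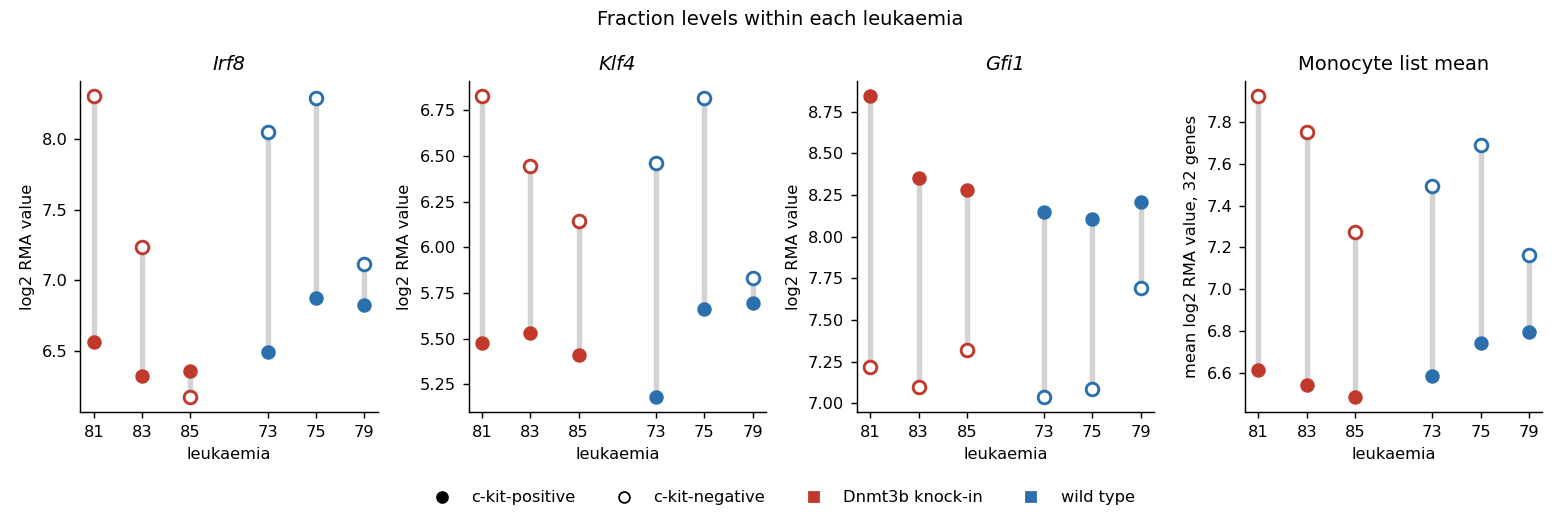
Log2 RMA values of Irf8, Klf4 and Gfi1 and the mean log2 value of 32 monocyte and macrophage genes in each leukaemia, with filled circles for c-kit-positive and open circles for c-kit-negative cells, knock-in leukaemias (red) left of wild-type leukaemias (blue). Axes start at different values. In these panels the fractions of leukaemia 79 lie close together, which does not hold for every gene list. In leukaemia 85 Irf8 alone, read by its main probe set, has its c-kit-positive value above its c-kit-negative one among the monocyte panels.

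Lists built on granule genes, whose transcription the granulocyte-side factors control, mostly went opposite ways. The first list was built on primary granule genes of the promyelocyte stage, and some of its 13 genes, such as Clec12a, do not encode granule proteins. Of the 13, 7 were higher in c-kit-positive cells (Mpo, Elane, Prtn3, Ctsg, Ms4a3, Nkg7 and Clec12a) and 0 lower. Over all genes tested, 5.84% were higher and 2.41% lower. The median log2 difference of the 13 genes was 0.74 (limma). Mpo, which encodes myeloperoxidase, was 7.23-fold higher, Nkg7 3.71-fold, Ctsg, which encodes cathepsin G, 3.45-fold and the lectin receptor gene Clec12a 1.67-fold. The count was 4 without leukaemia 73. With the replicate block 11 passed, 10 higher and 1 lower, beside 19.6% of all genes. Of 31 genes of secondary and tertiary granules and late neutrophils, 2 were higher (Fcnb and Mgam) and 14 lower, with a median of -0.52. These counts stand beside the same 5.84% and 2.41% of all genes. With the replicate block 22 were lower, where 19.6% of all genes passed in either direction. Mmp8, which encodes neutrophil collagenase, was 8.33-fold lower, Ly6g, a surface marker of mouse neutrophils, 3.36-fold, Anxa1, which encodes annexin A1, 2.32-fold, and Fpr2, a chemotactic receptor gene, 2.30-fold. The part of cell stage in the Gfi1 difference was not tested.

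Other regulators of the same lineages were mostly lower in c-kit-positive cells where they passed. Of 40 tested genes, 3 were higher (Fli1, Myc and Myb) and 8 lower (Irf7, Id2, Junb, Nr4a1, Rara, Mxd1, Hlx and Bcl6), with a median log2 difference of -0.10 (limma). Myb, a factor of immature progenitors, was 2.01-fold higher (log2 difference 1.01, adjusted p = 0.00175). Nr4a1, an orphan nuclear receptor needed by patrolling monocytes, was 2.54-fold lower, Id2, an inhibitor of basic helix-loop-helix factors, 2.13-fold lower, and the repressor gene Bcl6 1.64-fold lower. The count of 11 stood beside 8.25% of all genes tested. It was 6 without leukaemia 73 and 5 without leukaemia 75, and it was 20 with the replicate block, beside 19.6% of genes.

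Partners and antagonists of C/EBP proteins had 0 of 5 past the threshold with limma, beside 8.25% of genes, at a median of -0.18. Cebpg, Ddit3, Trib1 and Trib2 of this list are also among the other regulators above, so the lists are not independent. Trib1, a pseudokinase that targets C/EBPα for degradation, had -0.50 (adjusted p = 0.0703), and Nfil3, a basic leucine zipper factor, -0.37 (adjusted p = 0.0744). With the replicate block both passed (adjusted p = 0.000315 and 0.00211 with limma), which is 2 of 5, beside 19.6% of genes. Of 13 myeloid growth factor receptors, 5 were lower (Csf1r, Csf2rb2, Il6ra, Il6st and Tlr2), beside 2.41% of genes, with a median of -0.12. Csf1r is also in the monocyte list. Kit was higher, but it encodes the receptor used for the sort and so is a label check only. With Kit included, the receptor count was 2 without leukaemia 73, 75 or 83.

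The genotype labels, which ask what Dnmt3b overexpression goes with, did not separate any of the 9 factors past the threshold. In c-kit-positive cells 0 of 9 members passed with limma, beside 0.141% of genes, in c-kit-negative cells 0 of 9, beside 0.0627%, and over both fractions 0 of 9, beside 0.0261%. An unadjusted p under 0.05 was reached by 1 member in each comparison (Cebpa, Cebpd and Cebpa in this order), beside 9.89%, 6.10% and 8.37% of genes. Members' medians were -0.02, -0.02 and 0.03, against 0.01, -0.00 and 0.01 over all genes.

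In c-kit-positive cells the largest genotype differences were those of Cebpe and Cebpa, on the granulocyte side. Cebpa averaged 5.63 ± 0.26 in knock-in and 6.23 ± 0.38 in wild-type leukaemias (SD, n = 3 each), a log2 difference of -0.60 (95% confidence interval -1.06 to -0.14, adjusted p = 0.349 with limma). Cebpe averaged 9.55 ± 0.33 in knock-in and 8.95 ± 0.28 in wild-type leukaemias, a difference of 0.60 (-0.02 to 1.23, adjusted p = 0.524 with limma). Gfi1 differed by 0.34 (-0.04 to 0.72, adjusted p = 0.565 with limma). The knock-in and wild-type arrays did not overlap for these 3 of 9 members, beside 17.4% of genes. Without leukaemia 81 the differences were -0.75 for Cebpa, 0.46 for Cebpe and 0.16 for Gfi1.

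Over both fractions Cebpa averaged 5.68 ± 0.25 in the knock-in and 6.19 ± 0.33 in the wild-type leukaemias (SD, n = 3 leukaemias each). The difference of -0.50 (95% confidence interval -0.92 to -0.08, adjusted p = 0.495 with limma) lay between -0.64 and -0.32 when each leukaemia was left out in turn. Irf8 averaged 6.82 ± 0.59 in knock-in and 7.27 ± 0.31 in wild-type leukaemias, a difference of -0.45 (-1.07 to 0.18, adjusted p = 0.739 with limma), whereas its other probe set gave 0.16. Klf4 differed by 0.03 (-0.31 to 0.37) and Spi1 by 0.01 (-0.25 to 0.28), so that genotype differences beyond those bounds lie outside their intervals.

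**Figure D4:**
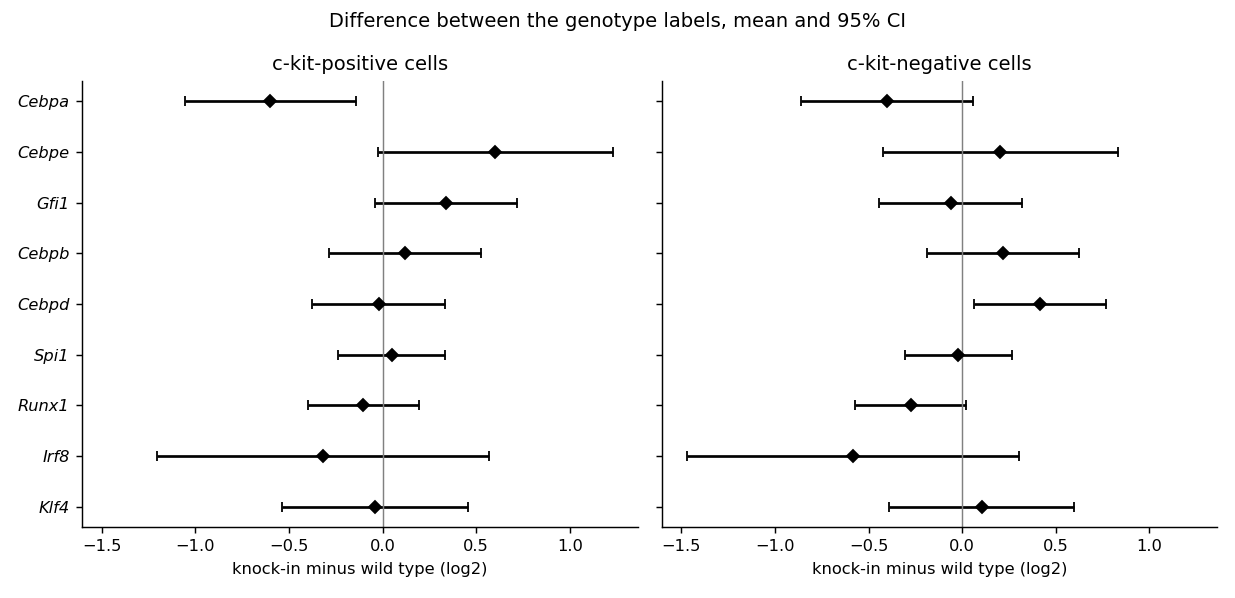
Log2 difference of knock-in minus wild-type leukaemias for each factor in c-kit-positive (left) and c-kit-negative cells (right), as the limma mean of 3 against 3 arrays with its 95% confidence interval. Intervals leave out 0 for Cebpa on the left and for Cebpd on the right, and 0 of 9 factors passed after adjustment in either panel.

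In c-kit-negative cells the largest difference was that of Irf8, and the 1 of 9 members without overlap was Cebpd, beside 8.88% of genes. Cebpd averaged 6.53 ± 0.15 in knock-in and 6.12 ± 0.18 in wild-type leukaemias (SD, n = 3 each), a log2 difference of 0.41 (95% confidence interval 0.06 to 0.77, adjusted p = 0.788 with limma). Cebpa had -0.40 (-0.86 to 0.06), Runx1 -0.27 (-0.57 to 0.02) and Irf8 -0.58 (-1.47 to 0.31), with adjusted p-values of 0.854, 0.839 and 0.919 with limma. The wide Irf8 interval goes with knock-in values of 8.30, 7.23 and 6.17, against wild-type values of 8.05, 8.29 and 7.11. Without leukaemia 81 its difference was -1.12 (adjusted p = 0.156 with limma).

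Lineage genes outside the 9 factors gave the context of these labels. Of all genes tested, 0.141% passed in c-kit-positive cells, 0.0627% in c-kit-negative cells and 0.0261% over both, and the counts below stand beside these shares. Of 40 other regulators, 0 passed in either fraction or over both with limma. Id2 had 1.18 in c-kit-positive cells (adjusted p = 0.145) and the ETS factor gene Ets1 0.60 (adjusted p = 0.219). Late neutrophil genes were higher in the knock-in leukaemias for 5 of 31 in c-kit-positive cells (Ltf, Ly6g, Chil1, S100a8 and Fpr2) and for 6 of 31 in c-kit-negative cells, and 0 were lower. Leaving out leukaemia 73 gave 8 such genes in c-kit-positive cells and leaving out 81 gave 6, whereas 75 gave 2, 79 gave 1, 83 gave 0 and 85 gave 3. In c-kit-negative cells there were 3 when 73, 75 or 79 was left out, 2 when 83 was and 6 when 81 was. The medians of the late neutrophil genes were 0.65 and 0.55. Cebpe, the factor known for secondary granule genes, had 0.60 and 0.20 and did not pass (adjusted p = 0.524 and 0.971 with limma). Between the c-kit fractions over both genotypes the list median and Cebpe had opposite signs, at -0.52 and 0.44. A link between Cebpe and these genes was not tested. Of 32 monocyte genes 0 passed in c-kit-positive cells, or 1 as lower without leukaemia 81. In c-kit-negative cells 1, Clec4a3, was higher (0 without leukaemia 73, 75, 79 or 83, and 2 without 85). The medians of the monocyte genes were -0.11 and 0.21.

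The interaction asks whether the fraction difference depends on the genotype label, and 0 of 9 members passed, beside 0.00% of the 19152 genes with limma. An unadjusted p under 0.05 was reached by 2.23% of genes and by 0 members in this fit, which does not pair the fractions. With the replicate block Cebpd had an unadjusted p of 0.0414 (adjusted p = 0.848 with limma). Gfi1 had an interaction of 0.40 (95% confidence interval -0.14 to 0.94), Cebpe 0.40 (-0.49 to 1.28) and Cebpd -0.44 (-0.93 to 0.06), each with an adjusted p of 1.0 with limma. Irf8 had 0.27 (-0.99 to 1.52) and Klf4 -0.14 (-0.84 to 0.56), with the same adjusted p. The calls of Klf4 in knock-in leukaemias and not in wild type are therefore not shown to differ.

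The order of the 4 group means was set by the fraction for Gfi1 and Klf4. For Gfi1 it ran from c-kit-positive knock-in (8.49) over c-kit-positive wild type (8.15) and c-kit-negative wild type (7.27) to c-kit-negative knock-in (7.21), and only the last neighbours overlapped in their arrays. For Klf4 it ran from c-kit-negative knock-in (6.47) over c-kit-negative wild type (6.37) and c-kit-positive wild type (5.51) to c-kit-positive knock-in (5.47), and only the middle neighbours did not overlap. For Irf8 it ran from c-kit-negative wild type (7.82) over c-kit-negative knock-in (7.24) and c-kit-positive wild type (6.73) to c-kit-positive knock-in (6.41), with overlap between all neighbours.

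Cebpe ran from c-kit-positive knock-in (9.55) over c-kit-positive wild type (8.95) and c-kit-negative knock-in (8.91) to c-kit-negative wild type (8.71), and only the first neighbours did not overlap. Cebpa was ordered by genotype, from c-kit-positive (6.23) and c-kit-negative wild type (6.14) to c-kit-negative (5.73) and c-kit-positive knock-in (5.63), with overlap between all neighbours. For Cebpb, Cebpd, Spi1 and Runx1 all neighbours overlapped. The highest mean was that of c-kit-negative knock-in for Cebpb (6.91) and Cebpd (6.53), of c-kit-negative wild type for Spi1 (8.92) and of c-kit-positive wild type for Runx1 (7.82).

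Relations between the factors across the 6 leukaemias were computed within each fraction, 72 in all, and 0 passed after Benjamini-Hochberg adjustment (lowest adjusted p 0.40 for Pearson's r, exact permutation tests). Pearson's r had an unadjusted p under 0.05 for 5 pairs. Cebpe and Gfi1 were correlated in c-kit-positive cells, with r = 0.862 (exact permutation p = 0.00833) and rho = 1 (exact permutation p = 0.00278, the smallest 6 leukaemias allow, adjusted p = 0.20). Without the 2 leukaemias farthest from the median of Cebpe r was 0.880, and with the genotype means removed it was 0.722. In c-kit-negative cells Cebpe and Gfi1 had r = 0.508 (exact permutation p = 0.314). Cebpa and Irf8 in c-kit-positive cells had r = 0.890 (exact permutation p = 0.0125) and rho = 0.943, or r = 0.762 without the 2 farthest.

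In c-kit-negative cells Runx1 and Irf8 had r = 0.959 (exact permutation p = 0.0167) and rho = 0.714 (exact permutation p = 0.136), with r = 0.938 without the 2 farthest leukaemias. Cebpa and Runx1 had r = 0.834 (exact permutation p = 0.0347) and rho = 0.886, or 0.957 without the 2 farthest. Gfi1 and Klf4 had r = -0.783 (exact permutation p = 0.0472) and rho = -0.60, but 0.660 without the 2 farthest, so that this relation rests on those leukaemias. Irf8 and Klf4 had r = 0.767 (exact permutation p = 0.0722) and rho = 0.943 (exact permutation p = 0.0167), or r = 0.803 without the 2 farthest. In c-kit-positive cells Irf8 and Klf4 had r = 0.620 (exact permutation p = 0.190), but -0.358 without the 2 farthest.

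Over the 12 arrays, genes with the pattern most like each factor were named by Pearson's r, as a description in which both arrays of a leukaemia share their source. Gfi1 was most like Dstn, which encodes the actin-depolymerizing protein destrin (r = 0.973), and Neto2 (r = 0.968). Klf4 was most like Cyp27a1, which encodes sterol 27-hydroxylase, and Pip4k2a, a phosphatidylinositol phosphate kinase gene (r = 0.967 for both). Irf8 was most like Nckap1l, which encodes the haematopoietic WAVE complex subunit Hem-1 (r = 0.962), and Limd1 (r = 0.953). Spi1 was most like Myo1f, a myosin gene of myeloid cells (r = 0.941), and Tmc8 (r = 0.940).

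For the remaining factors the highest r was 0.936 between Cebpe and Sgms2, a sphingomyelin synthase gene, and likewise 0.936 between Runx1 and Sec63, a gene of the endoplasmic reticulum translocon. Cebpa had 0.933 with Rnf220, a ubiquitin ligase gene, and Cebpb 0.892 with the zinc-finger gene Zfp516. Cebpd had the lowest top value of the 9, 0.850 with D17H6S53E.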

How the data were processed

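Gene expression was measured on 12 arrays of cells sorted by c-kit from leukaemic tissue. The deposited table holds log2 values for 41345 probe sets, made by the authors with RMA in Affymetrix Expression Console, per the submitters' processing notes, with no versions given. They were used as deposited, and 0 columns belonged to other samples. A probe annotation gave 1 symbol for 23521 probe sets and several for 1814, and 22180 genes remained after the probe set with the highest mean was kept. Genes above 4.61 on at least 3 arrays were tested, 19152 in all.

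One limma model (version 3.58.1, R 4.3.3, statmod 1.5.0) with 4 group means was fitted to all genes by lmFit, contrasts.fit and eBayes. The genotype comparison over both fractions used 6 leukaemia means. Tests were two-sided, with Benjamini-Hochberg adjustment over all genes tested, and the code was tested on simulated data. Precision is limited by the number of arrays. The 2 arrays of a leukaemia share its number in the labels, and their deviations from group means correlated with r of 0.279 to 0.601 in each of the 6, so the numbers pair the samples. The block was fixed for fraction contrasts and random for genotype contrasts. The members, and 11 further lists of lineage and cell type genes, were chosen with earlier results of these data known. Named were all 9 members, Dnmt3b and Kit, up to 4 genes per list with the smallest p, genes past the threshold against a list's median, counts of few genes, and the 2 genes most like each member. Promoter windows came from RefSeq (GRCm38.p6). Alternatives covered normalization, filter, probe set, spread estimate, arrays fitted, pairing and leaving out each leukaemia.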

Additional observations from a re-analysis of the deposited data

How the results depend on the processing

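Over both genotypes, Gfi1 and Klf4 kept their direction and their calls between the c-kit fractions under all alternatives, with Gfi1 at 0.99 to 1.17 and Klf4 at -1.11 to -0.82 when a leukaemia was left out (limma). Members past the threshold over both genotypes were 2, against 6 with the leukaemia as a replicate block, which changed no call of the genotype or interaction comparisons. Within wild type the count was 1, against 3 with the replicate block, 2 in a fit to the arrays compared alone, 0 with each array centred on its median or with a trended and robust spread, and 0 to 2 in leave-outs. Within knock-in it was 2, against 1 with centred arrays or without the filter, and 1 to 2 in leave-outs. In genotype and interaction comparisons it was 0 under every alternative.

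Of 918 member values under the alternatives, 33 turned their sign, and those 33 passed the threshold neither before nor after. In c-kit-positive cells the genotype difference ran over leave-outs from -0.22 to 0.081 for Cebpd, -0.21 to 0.051 for Klf4, -0.018 to 0.14 for Spi1 and -0.011 to 0.27 for Cebpb. In c-kit-negative cells it ran from -0.10 to 0.53 for Cebpe, -0.18 to 0.15 for Gfi1, -0.14 to 0.10 for Spi1 and -0.17 to 0.33 for Klf4. Over both fractions it ran from -0.079 to 0.12 for Spi1, which was -0.011 with centred arrays, and from -0.058 to 0.18 for Klf4. The fraction difference ran from -0.12 to 0.25 for Cebpd in wild type and from -0.039 to 0.068 for Cebpa over both genotypes, where repeated quantile normalization gave Cebpa 0.025 and centred arrays 0.039. The interaction ran from -0.17 to 0.028 for Cebpb, -0.36 to 0.22 for Klf4 and -0.24 to 0.72 for Irf8. Reading Irf8 by its other probe set, an alternative chosen after seeing the data, gave genotype differences of 0.12, 0.19 and 0.16 in c-kit-positive cells, c-kit-negative cells and both, and an interaction of -0.065. The cause of these turns was not tested. With 3 arrays per group, a genotype difference that missed the threshold is not shown to be absent.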

Other observations

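Genes of other cell types that the sort could hold were mostly not past the threshold between the c-kit fractions over both genotypes with limma. The counts stand beside 8.25% of all genes tested. Of 9 T and NK cell genes and 7 dendritic cell genes, 0 passed, at median log2 differences of -0.14 and -0.12, but 1 dendritic cell gene (Itgax) was lower in c-kit-positive cells with the replicate block or without leukaemia 85. Of 11 erythroid and megakaryocyte genes, 1 was higher in c-kit-positive cells (Tfrc, the transferrin receptor gene, at 0.47), and of 11 mast cell, basophil and eosinophil genes, 1 was higher (Mcpt8, a basophil protease gene, at 0.88), or 2 with the replicate block (Mcpt8 and Siglecf). Of 8 B cell genes, 1 was lower (Ighm, the immunoglobulin mu heavy chain gene, at -0.73 with an adjusted p of 0.0473). The Tfrc call was lost without leukaemia 73, 75, 79 or 81 (adjusted p of 0.0833 to 0.158 with limma), the Mcpt8 call without 73, 81, 83 or 85 (0.0636 to 0.132) and the Ighm call without 73, 75, 79, 83 or 85 (0.0588 to 0.186). Without leukaemia 81, 2 B cell genes passed, Ighm as lower and Cd79b as higher.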
